A study of Homo sapiens with 11 samples.

Results

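The genes described here are 31 enzymes and regulators of cholesterol and fatty acid synthesis, taken by symbol from the RNA-seq tables of 2 human lung cancer cell lines. All 31 were found in both tables, out of 21316 gene rows for A549 and 20915 for H1299, and all 31 passed the minimum mean value of 1 in each line. By role, 17 are enzymes of sterol synthesis, 6 are regulators or carriers around the sterol-sensing transcription factors SREBP, and 8 are enzymes of fatty acid synthesis and desaturation. A549 is an established lung adenocarcinoma line and H1299 an established non-small-cell lung carcinoma line. In each line, 1 control library came from cells carrying a GFP-directed shRNA (shGFP), and 2 libraries, numbered 1 and 2, from cells carrying a METTL3-directed shRNA (shMETTL3). METTL3 is the catalytic subunit of the complex that writes N6-methyladenosine (m6A) into mRNA. All cells grew in DMEM with serum and antibiotics, and poly(A) RNA was sequenced. The labels give neither the hairpin sequences, the vector nor the time after transduction, and do not tell what the numbers 1 and 2 mean, separate hairpins or repeats of one. Each p-value therefore covers only the spread between these libraries, which may be technical. The m6A peak lists of the series carry no gene names and were not used here.

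Cholesterol is built from acetyl-CoA through mevalonate, the isoprenoid farnesyl diphosphate, squalene and lanosterol. Fatty acids are built from the same acetyl-CoA, which ATP citrate lyase releases from citrate. SREBF2 and SREBF1 encode transcription factors that sit in the endoplasmic reticulum with the escort protein SCAP. INSIG proteins hold SCAP there while sterols are plentiful. When sterols run low, the complex moves to the Golgi, the factors are cut free, and genes of both branches are switched on, often together with NF-Y at CCAAT boxes and Sp1 at GC boxes. SREBF2 is known mainly for the sterol branch and SREBF1 for the fatty acid branch. In cultured cells, serum supplies sterols and thereby holds this system partly down.

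Promoters are shown for the genes that the comparison of libraries 1 and 2 turns on. The RefSeq promoter table (GRCh38.p14) held a promoter for 27 of the 31 members, each running from 250 bases before to 50 after the start. There was no entry for FDFT1, SQLE, ACAT2 and FASN. The letters CCAAT were found on either strand of at least 1 promoter in 13 of 14 sterol enzymes, 3 of 6 regulators and 5 of 7 fatty acid enzymes, against 39.7% of the 27305 genes in the table. GGGCGG, the GC box, was found for 26 of 27 members, against 48.3% of all genes. The E-box CANNTG was found for 19 of 27, against 73.1% of all genes; its letters can overlap a CCAAT match. TCACNCCAC, a form of the sterol regulatory element, was found in 1 of 27 members, SREBF2, against 1.39% of all genes. A match is a description of the letters, and no match says only that these letters are not in the window. Below are the 250 bases before the start, 5′ to 3′, of both genes that passed the test between libraries 1 and 2 (HMGCS1 and LSS), of the sterol enzyme that differed the other way (NSDHL), and of SREBF2. Capitals mark CCAAT on either strand (ATTGG when it lies on the other) and, in SREBF2, TCACNCCAC. They lie at chr5:43313413-43313662 (minus strand), chr21:46228775-46229024 (minus), chrX:152830813-152831062 (plus) and chr22:41832855-41833104 (plus), in that order.
HMGCS1: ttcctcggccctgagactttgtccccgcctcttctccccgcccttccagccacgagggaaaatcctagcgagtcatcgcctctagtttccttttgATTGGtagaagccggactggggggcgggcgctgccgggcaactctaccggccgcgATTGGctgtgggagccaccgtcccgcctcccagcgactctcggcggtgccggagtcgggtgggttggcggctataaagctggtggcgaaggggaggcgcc
LSS: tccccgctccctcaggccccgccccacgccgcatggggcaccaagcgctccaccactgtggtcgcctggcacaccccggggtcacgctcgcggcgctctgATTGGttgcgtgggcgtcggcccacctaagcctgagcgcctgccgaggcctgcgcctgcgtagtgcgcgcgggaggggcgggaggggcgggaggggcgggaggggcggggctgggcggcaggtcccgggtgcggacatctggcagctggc
NSDHL: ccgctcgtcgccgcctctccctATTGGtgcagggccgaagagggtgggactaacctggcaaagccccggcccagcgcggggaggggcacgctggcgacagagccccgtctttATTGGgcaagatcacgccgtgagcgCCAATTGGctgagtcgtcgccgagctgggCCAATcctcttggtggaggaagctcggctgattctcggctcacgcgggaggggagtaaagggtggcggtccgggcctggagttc
SREBF2: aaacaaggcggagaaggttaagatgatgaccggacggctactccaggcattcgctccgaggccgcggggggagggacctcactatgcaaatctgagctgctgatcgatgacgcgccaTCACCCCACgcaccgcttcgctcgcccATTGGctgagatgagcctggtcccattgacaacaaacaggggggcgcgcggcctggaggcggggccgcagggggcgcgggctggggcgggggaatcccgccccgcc
The HMGCS1 promoter shown held CCAAT starting 155 and 100 bases before the start, while the other of its 2 entries in the table, at a downstream start, held 0. LSS held 1 at 150 bases. NSDHL held 5 such matches. In SREBF2 the TCACNCCAC match began 133 bases before the start and the CCAAT match 106 bases before it.

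Values are reads divided by 1 factor per library, as deposited. Recovered totals were 19966206, 14447379 and 16504759 reads in A549 (shGFP, libraries 1 and 2) and 26351309, 23099169 and 25443078 in H1299, so library 1 was the shallowest of each line. RNA was taken from whole cultures, so fewer cells with a transcript and less of it per cell cannot be told apart. The least covered member value was TM7SF2 in A549 shGFP, at 78 reads (exact 95% Poisson interval 61.7 to 97.3, which covers counting error only). METTL3 stood at 41.6 and 41.7% of shGFP in A549 libraries 1 and 2, and at 45.4 and 36.9% in H1299. Of 9 epithelial markers, 8 had a mean of at least 1 in A549 and 6 in H1299, where EPCAM and SFTPC were under 1 and KRT19 was listed at 0 in each library. Levels are not corrected for transcript length, so they are compared between libraries and never between genes. The tables of the lines were scaled separately, so a level in A549 set beside one in H1299 is not a comparison.

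No member passed the test for a change with shMETTL3. By limma on log2(value + 1), with Benjamini-Hochberg adjustment over all genes and a threshold of 0.05, 0 of 17454 genes passed in A549 (0%), 0 of 16470 in H1299 (0%), and 0 of 17284 over both lines (0%). At an unadjusted p under 0.05 there were 115, 99 and 397 genes, of which 1, 0 and 2 were members. In A549, edgeR on recovered reads called 0 genes (138 at an unadjusted p under 0.05) and DESeq2 called 0 (57). With 1 control and 2 knockdown libraries per line, 0 calls do not show that the members stayed the same. Members were also counted by their side of the control in both knockdown libraries. In A549, 6 members were higher in both libraries and 7 lower in both, against 27.2% of all genes in each direction. In H1299, 5 were higher in both and 9 lower in both, against 30.6 and 24.5% of all genes. In all 4 knockdown libraries, 3 members were higher (10.1% of all genes) and 4 lower (8.67%). No member was 2-fold away from its control in any library.

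**Figure D1:**
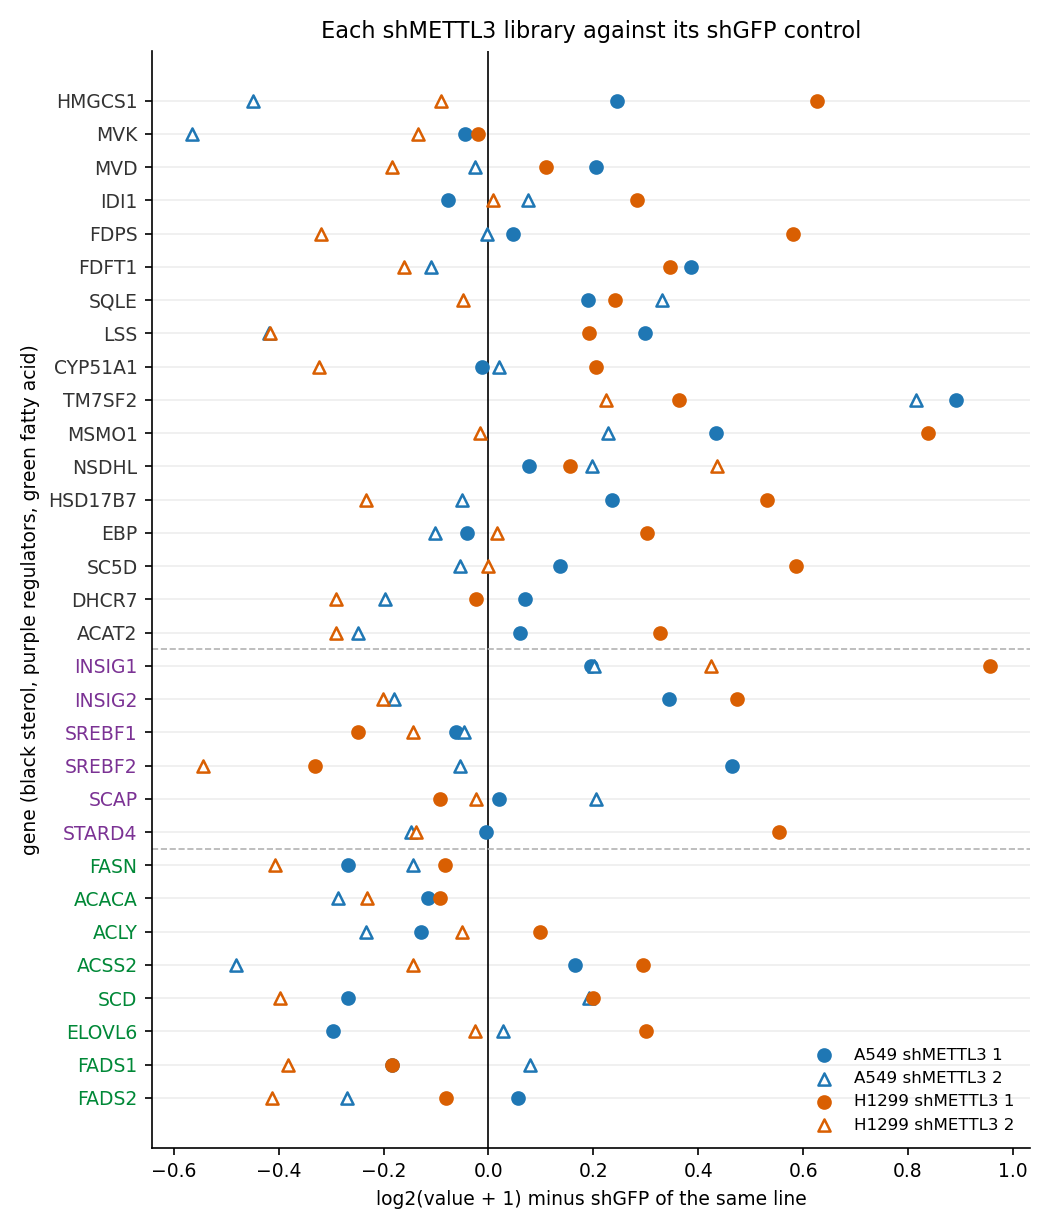
The difference of log2(value + 1) from the shGFP library of the same line (x axis) is plotted for each of the 31 genes (y axis), with filled circles for shMETTL3 library 1 and open triangles for library 2, in blue for A549 and orange for H1299. Differences run from -0.57 (MVK, A549 library 2) to 0.96 (INSIG1, H1299 library 1), and TM7SF2, NSDHL and INSIG1 are right of 0 in all 4 libraries.

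The sterol branch begins with HMGCS1, which condenses acetyl-CoA and acetoacetyl-CoA into HMG-CoA. In A549, HMGCS1 stood at 996 in shGFP and at 1182 and 730.0 in shMETTL3 libraries 1 and 2. In H1299, it stood at 220.0, 340.0 and 206.6. In both lines library 1 lay above the control and library 2 below it. ACAT2, the cytosolic thiolase that makes acetoacetyl-CoA, had the same order, with 278, 290 and 234 in A549 and 270, 339 and 221 in H1299. The ACAT2 locus overlaps TCP1 and SOD2, and strand-aware counting is not stated, so its reads may be shared.

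The mevalonate kinase MVK was below the control in all 4 libraries, most in A549 library 2. It stood at 78.2, 75.7 and 52.5 in A549 and at 71.2, 70.2 and 64.8 in H1299 (log2 -0.19 over both lines, SE 0.18, limma adjusted p = 0.9999). Without A549 library 2 the log2 difference of MVK over both lines was -0.063. MVD, which decarboxylates mevalonate diphosphate, stood at 224, 258 and 220.0 in A549 and at 518, 559 and 456 in H1299, again with library 1 above the control and library 2 below it. Its partner IDI1, the isomerase of isopentenyl diphosphate, was within 94.7 to 122% of the control in every library. FDPS, which makes farnesyl diphosphate, was within 99.8 to 103% of the control in A549 but stood at 279, 418 and 223 in H1299, where library 1 was at 150% and library 2 at 80.1%. FDPS, IDI1, CYP51A1 and HSD17B7 have named pseudogenes, and reads may be split between copies.

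From squalene onwards, most enzymes again had library 1 above the control. FDFT1, the squalene synthase, stood at 107, 140 and 98.8 in A549 and at 106, 134 and 94.2 in H1299. LSS, which closes squalene epoxide into lanosterol, stood at 150, 185 and 112 in A549 and at 292.5, 334 and 219 in H1299. Library 2 thus held 60.6 and 65.5% of the LSS level of library 1. The squalene epoxidase SQLE differed from these in A549, where both libraries were above the control (977, 1115 and 1230), while in H1299 it stood at 628, 743 and 608. CYP51A1, the lanosterol demethylase, was within 99.2 to 101% of the control in A549 and at 115 and 79.8% in H1299 libraries 1 and 2.

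TM7SF2, a sterol reductase that removes the double bond at C14, had the largest departure from the control in A549. It stood at 20.5 in shGFP and at 38.9 and 36.9 in libraries 1 and 2, which is 190 and 180% of the control. The H1299 values were 50.4, 65.1 and 59.0. Its log2 difference was 0.85 in A549 (SE 0.28, limma adjusted p = 1) and 0.57 over both lines (SE 0.18, adjusted p = 0.9999). NSDHL, which acts with MSMO1 in the removal of the C4 methyl groups, was also above the control in all 4 libraries. It stood at 200, 211 and 229 in A549 and at 142, 158 and 193 in H1299 (log2 0.22, SE 0.13, adjusted p = 0.9999 over both lines). Here library 2 was the highest of each line, the reverse of HMGCS1 and LSS.

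MSMO1, the C4-methyl oxidase, stood at 166, 225 and 195 in A549 and at 26.9, 48.9 and 26.6 in H1299, so that library 1 was the highest of each line. HSD17B7, the ketosteroid reductase of the same step, stood at 68.7, 81.1 and 66.3 in A549 and at 25.1, 36.7 and 21.2 in H1299. SC5D, a desaturase late in the pathway, stood at 142, 156 and 136 in A549 and at 40.2, 60.9 and 40.2 in H1299. These 3 genes shared the order of library 1 over library 2 in both lines. The isomerase EBP was within 93.2 to 123% of the control in every library. DHCR7, the last reductase on the way to cholesterol, stood at 509, 534 and 444 in A549 and at 560, 550 and 457 in H1299, with library 2 the lowest of each line.

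Among the regulators, INSIG1 was above the control in all 4 libraries. INSIG1 retains SCAP in the endoplasmic reticulum and is itself a known SREBP target. It stood at 167, 191 and 192 in A549 and at 177, 345 and 238 in H1299. H1299 library 1 held 195% of its control, the largest departure of any member in any library. The log2 difference was 0.44 over both lines (SE 0.18, limma adjusted p = 0.9999), and 0.29 without H1299 library 1. Its relative INSIG2, by contrast, was split, with 133, 169 and 117 in A549 and 29.8, 41.8 and 25.8 in H1299.

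SREBF2 stood at 508, 701 and 489 in A549, so that library 1 alone was far above the control. Its H1299 values were 1018, 810 and 698, with both libraries below the control, at 79.5 and 68.5%. The test of the difference between the lines gave a log2 of -0.64 (SE 0.36, limma adjusted p = 0.99999). SREBF1 was below the control in all 4 libraries by small amounts, at 982, 940 and 951 in A549 and 1747, 1470 and 1581 in H1299 (log2 -0.13, SE 0.10, adjusted p = 0.9999 over both lines). SCAP was within 93.8 to 115% of the control. STARD4, a carrier that moves cholesterol between membranes, was within 90.2 to 99.6% of the control in A549 and stood at 63.7, 94.0 and 57.8 in H1299.

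**Figure D2:**
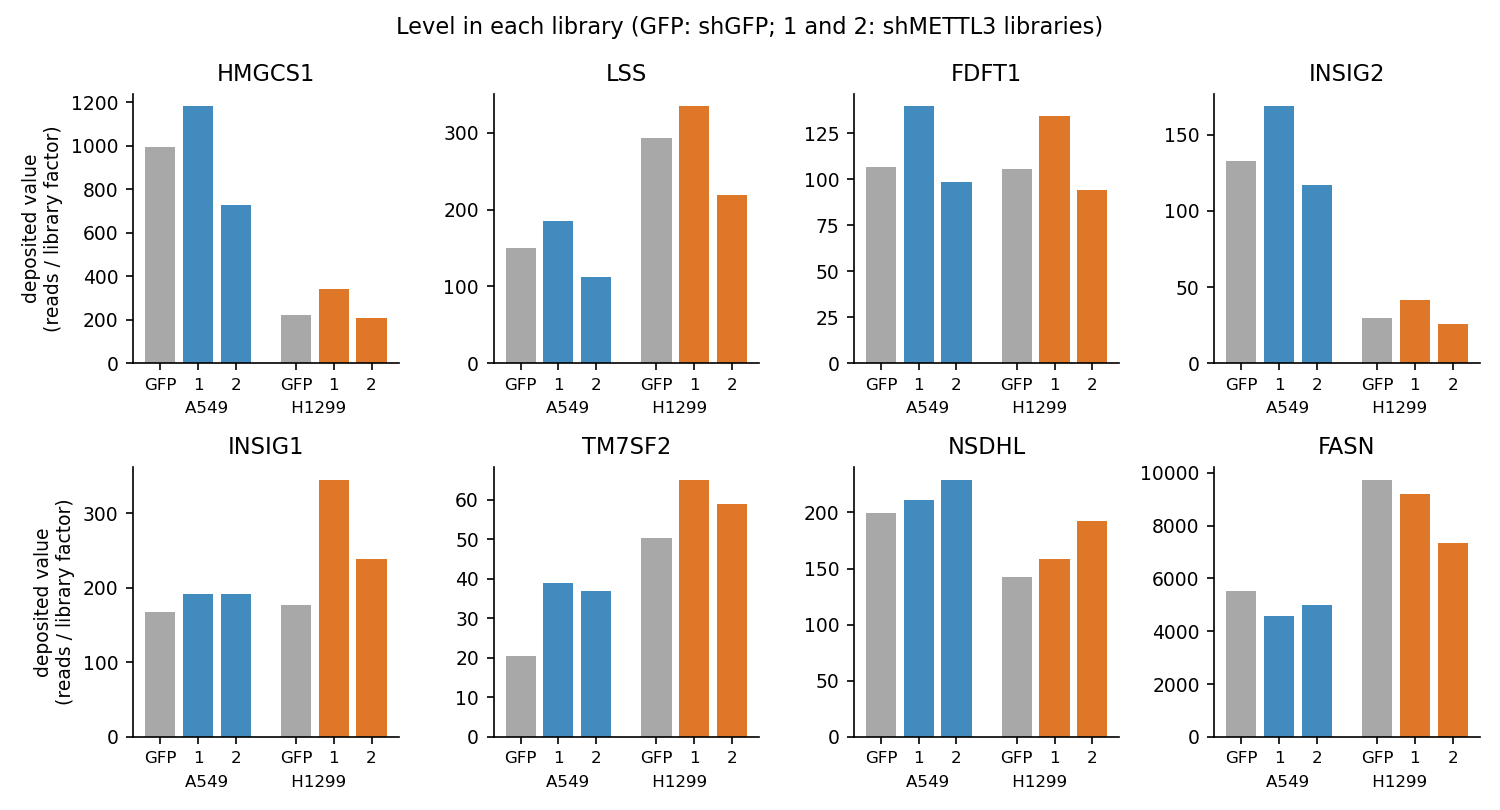
Bars give the deposited value (y axis, reads divided by the library factor, from 0) of 8 genes in each of the 6 libraries (x axis), with shGFP in grey, A549 shMETTL3 in blue and H1299 shMETTL3 in orange. HMGCS1, LSS, FDFT1 and INSIG2 are highest in library 1 and lowest in library 2 of both lines, while NSDHL is highest in library 2 and FASN is below its control in all 4.

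In the fatty acid branch, 0 of 8 enzymes were above the control in both libraries of a line, where 27.2% (A549) and 30.6% (H1299) of all genes were. Below it in both were 3 in A549 and 4 in H1299, where 27.2 and 24.5% of all genes were. Of the 17 sterol enzymes, 4 were above and 2 below in both libraries of each line. With 8 genes these counts are small, and no test was made on them. FASN, the fatty acid synthase, stood at 5525, 4587 and 4998 in A549 and at 9737, 9193 and 7347 in H1299 (log2 -0.23 over both lines, SE 0.13, limma adjusted p = 0.9999). ACACA, the acetyl-CoA carboxylase that supplies its malonyl-CoA, stood at 441, 407 and 362 in A549 and at 230.2, 216 and 196 in H1299 (log2 -0.18, SE 0.12, adjusted p = 0.9999). Both were below the control in all 4 libraries. ACLY, the ATP citrate lyase, was below it in both A549 libraries (91.5 and 85.1%) and at 107 and 96.5% in H1299. ACSS2, which makes acetyl-CoA from acetate, stood at 68.4, 76.8 and 48.8 in A549 and at 76.3, 93.8 and 69.0 in H1299, the same order as HMGCS1.

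The desaturases and the elongase differed between the lines in their order. SCD, which introduces the first double bond, stood at 9856, 8181 and 11257 in A549 and at 13439, 15430 and 10209 in H1299, so that library 2 was the highest in A549 and the lowest in H1299. ELOVL6, the elongase of palmitate, was likewise lower in library 1 in A549 (81.3 and 102% of the control) and higher in it in H1299 (123 and 98.3%). FADS1, the delta-5 desaturase, was at 88.0 and 106% in A549 and below the control in both H1299 libraries (88.1 and 76.7%). FADS2, the delta-6 desaturase, stood at 1472, 1531 and 1220.0 in A549 and at 135.5, 128 and 101.6 in H1299, with library 2 the lowest of each line. FADS1 and FADS2 overlap in the annotation.

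Set side by side, the sterol branch lay above the fatty acid branch in each knockdown library. The median log2 difference from shGFP over the 17 sterol enzymes was 0.14 and -0.05 in A549 libraries 1 and 2, and 0.30 and -0.13 in H1299. Over the 8 fatty acid enzymes it was -0.16 and -0.19 in A549, and 0.01 and -0.31 in H1299. The sterol median exceeded the fatty acid median by 0.29, 0.14, 0.29 and 0.17 in that order of libraries. The 6 regulators had medians of 0.11, -0.05, 0.19 and -0.14. All genes tested had medians of 0.01, -0.01, 0.08 and -0.03. Libraries of a line share their control, so the 4 differences are not independent, and no test was made over the branches. The sterol median was positive in library 1 and negative in library 2 of both lines, whereas the fatty acid median was negative in all but H1299 library 1.

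**Figure D3:**
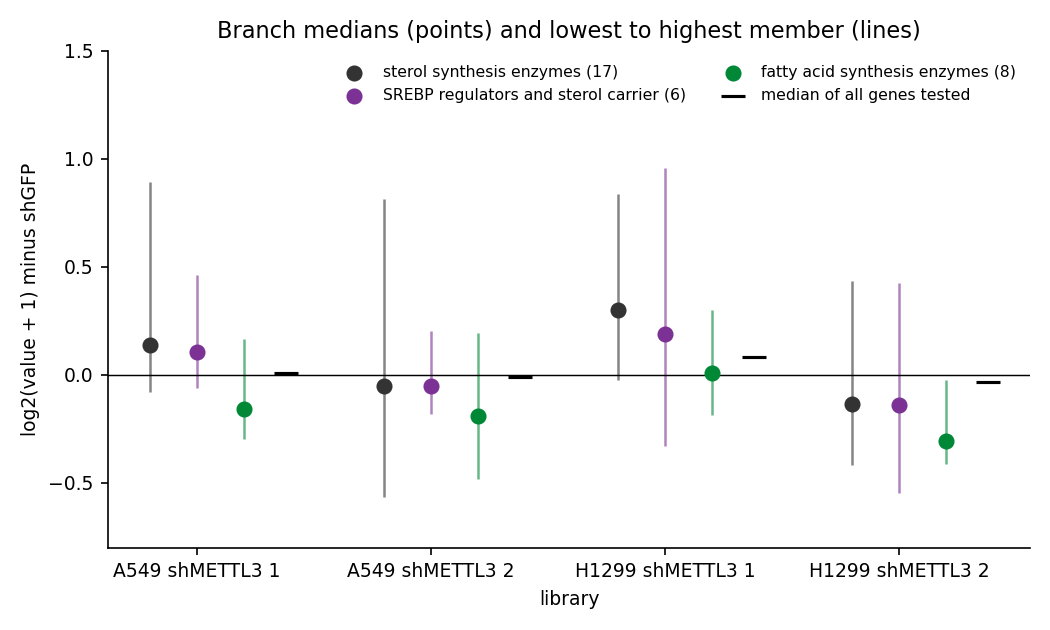
Points give the median difference of log2(value + 1) from shGFP (y axis) over each branch in each shMETTL3 library (x axis), lines run from the lowest to the highest member, and black dashes give the median of all genes tested. The black sterol point is above the green fatty acid point in each library, and each branch median is lower in library 2 than in library 1 of the same line, although in A549 the fatty acid enzymes had as many members lower in library 2 as higher (4 of 8).

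Library 2 held less of most sterol enzymes than library 1, in both lines. Of the 17 enzymes, 13 were lower in library 2 in both lines, 1 was higher in both (NSDHL), and IDI1, SQLE and CYP51A1 were split. Over all 31 members the counts were 20 lower, 3 higher (NSDHL, SREBF1 and SCAP) and 8 split. Among all genes tested, 36.7% were lower in library 2 in both lines and 20.2% higher. The regulators had 3 of 6 lower (INSIG2, SREBF2 and STARD4) and the fatty acid enzymes 4 of 8 (ACACA, ACLY, ACSS2 and FADS2). The median of number 2 minus number 1 over the sterol enzymes was -0.21 in A549 and -0.51 in H1299, against -0.02 and -0.13 over all genes tested. The fatty acid enzymes had 0.01 and -0.32.

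HMGCS1 and LSS were the members that passed the test between the numbers. HMGCS1 in library 2 was 61.8% of library 1 in A549 and 60.8% in H1299 (log2 -0.71, SE 0.13, limma adjusted p = 0.0441). LSS had a log2 difference of -0.66 (SE 0.12, adjusted p = 0.0428). Of 17284 genes, 197 passed (1.14%), 148 of them lower in library 2 (0.856%). A further 12 members had an unadjusted p under 0.05 and did not pass, all with library 2 lower: MVD, FDPS, FDFT1, MSMO1, HSD17B7, SC5D, DHCR7, ACAT2, INSIG2, STARD4, ACSS2 and FADS2. With HMGCS1 and LSS that is 14 of 31, where 12.4% of all genes had such a p with library 2 lower, both on the values as deposited. The members were chosen with earlier results of these data known. The adjusted p-values of these 12 ran from 0.0960 (INSIG2) to 0.273 (MVD). FDFT1 in library 2 was 70.7% of library 1 in A549 and 70.1% in H1299.

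Both calls depended on the scaling and on the estimate of spread. With the median of each library centred, which removes shifts of -0.08 in A549 and -0.15 in H1299, HMGCS1 had a log2 of -0.59 (adjusted p = 0.0707) and LSS -0.55 (adjusted p = 0.0745). That scaling left 148 calls, of which 40.5% were lower in library 2, in place of 75.1%. It left 14 of 31 members, 9 of 17 sterol enzymes and 24.8% of all genes lower in library 2 in both lines. Without an intensity trend 0 genes passed, and HMGCS1 and LSS had adjusted p-values of 0.248 and 0.241. Without A549 library 2, which leaves A549 no pair of numbers, the log2 was -0.62 for HMGCS1 and -0.63 for LSS.

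**Figure D4:**
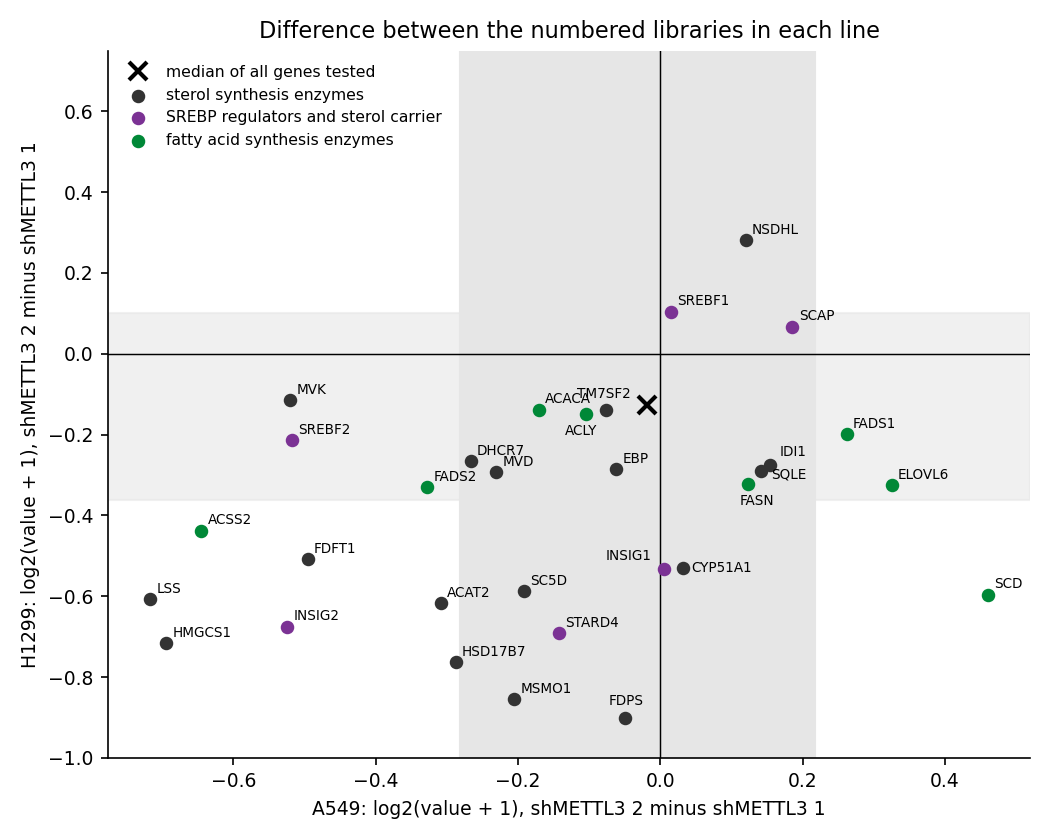
Each point is 1 of the 31 genes, placed by its difference of log2(value + 1) between shMETTL3 libraries 2 and 1 in A549 (x axis) and in H1299 (y axis). The cross marks the median of all genes tested, and grey bands hold the middle 50% of all genes in each line. HMGCS1 and LSS sit at the lower left, below both bands, and NSDHL, SREBF1 and SCAP are the points above 0 in both lines.

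Other measures were also compared between the library numbers, and their part in the difference was not tested. METTL3 itself had a log2 difference of -0.14 between the numbers over both lines (SE 0.12, limma adjusted p = 0.596). By line, that difference was 0.005 in A549 and -0.29 in H1299. RNA45S5, the ribosomal RNA precursor, held 20.5 and 25.4% of the H1299 total in libraries 1 and 2, and 0.208 and 0.284% of the A549 total. The summed level of 9 epithelial markers was 35756 in A549 shGFP, 41455 in library 1 and 34970 in library 2, and 7 of the 9 were lower in library 2. In H1299 the sums were 1578, 1667 and 1238, again with 7 of 9 lower in library 2, although KRT19 was at 0 and EPCAM and SFTPC were under 1. Among all genes tested, 52.0% were lower in library 2 in A549 and 63.4% in H1299. The summed level of 5 mesenchymal markers was 8717, 13180 and 8298 in A549 and 15631, 18130 and 14136 in H1299, with 2 and 4 of the 5 lower in library 2. In that list 2 genes were called lower in library 2: the matrix protein FN1 (log2 -2.37, SE 0.40, adjusted p = 0.0410) and the transcription factor ZEB2 (log2 -1.17, SE 0.16, adjusted p = 0.0248). FN1 stood at 882, 5894 and 532 in A549, so the higher A549 sum of library 1 rested on this gene and does not describe the list. Markers of cell types outside the lines were low, with sums of at most 181 in A549 and 252 in H1299 for leukocyte, 104 and 35.2 for fibroblast, 28.9 and 10.2 for endothelial, and 20.5 and 6.2 for adipocyte and hepatocyte markers. PTPRC, the pan-leukocyte marker, had a mean under 1 in both lines. Of the fibroblast markers, the collagens COL1A1 (log2 0.84, SE 0.22) and COL3A1 (log2 1.05, SE 0.42) were above the control in all 4 knockdown libraries. COL3A1 was near the floor in H1299, at 0, 0.4 and 1. The endothelial receptor KDR was also above the control in all 4 (log2 0.72, SE 0.29), at no more than 5 in any library. The monocyte marker CD14 was below the control in all 4 (log2 -0.60, SE 0.30), with H1299 values of 0.6, 0 and 0. None of these 4 passed (adjusted p = 0.9999 each).

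Further genes of these pathways lay in lists that are not part of the 31. Of 14 other isoprenoid and sterol genes tested, 0 were on one side of the control in all 4 libraries, and 1 was called between the numbers. That gene was PMVK, the kinase between MVK and MVD in the pathway. PMVK stood at 268, 260.4 and 97.2 in A549 and at 278, 302 and 85.8 in H1299, so that library 2 alone was far below the control (log2 -1.61 between the numbers, SE 0.13, limma adjusted p = 0.00481). Of 10 genes of SREBP processing and degradation, 2 were lower in all 4 libraries, where 8.67% of all genes were. They were FBXW7 (log2 -0.29, SE 0.20), the ubiquitin ligase subunit that marks nuclear SREBP for degradation, and ERLIN1 (log2 -0.21, SE 0.18). Both had an adjusted p of 0.9999 over both lines. ERLIN1 stood at 449, 293 and 448 in A549 and at 188.8, 188 and 163 in H1299. It was thus almost level with the control in A549 library 2 and H1299 library 1.

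Of 15 genes of cholesterol uptake, transport, export and storage, 3 were higher and 2 lower in all 4 libraries, against 10.1 and 8.67% of all genes. NPC1, which lets cholesterol out of lysosomes, stood at 1275, 531 and 915 in A549 and at 561, 511 and 446 in H1299 (log2 -0.55, SE 0.23). SOAT1, which esterifies cholesterol for storage, stood at 166, 174 and 192 in A549 and at 42.5, 69.1 and 59.6 in H1299 (log2 0.36, SE 0.16). LRP8, a lipoprotein receptor, had a log2 difference of -0.28 (SE 0.14), OSBP, a sterol and lipid transfer protein, 0.13 (SE 0.11), and STARD3, a late endosomal sterol carrier, 0.09 (SE 0.13). OSBP was almost level with the control in H1299 library 1 (763 against 757) and STARD3 in A549 library 1 (143 against 141). Of 21 other genes of fatty acid elongation, desaturation, activation and supply, 3 were higher in all 4 libraries, where 10.1% of all genes were. These were the elongases ELOVL4, ELOVL7 and ELOVL5. The elongase ELOVL6, one of the 31 members, was split in both lines. ELOVL4, which acts on very long chains, stood at 21.8, 34.6 and 35.3 in A549 and at 36.3, 74.2 and 48.8 in H1299 (log2 0.68, SE 0.20). ELOVL7, at 6.9, 14 and 7.4 in H1299, had a log2 difference of 0.42 (SE 0.25) and ELOVL5 of 0.19 (SE 0.14). ELOVL5 stood at 277, 279 and 365 in A549 and at 209, 237 and 233 in H1299. ELOVL7 was thus almost level with the control in H1299 library 2, and ELOVL5 in A549 library 1. FADS3 (log2 -0.30, SE 0.23) and HACD2 (log2 -0.23, SE 0.17) were lower in all 4. None of these passed by limma over both lines (adjusted p = 0.9999 each).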

How the data were processed

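RNA-seq of poly(A) RNA from 6 libraries was analysed. Per the submitters' processing notes, TopHat, Bowtie and the hg19 build were used, and per the labels' protocols libraries were made with a stranded mRNA kit; for the read counter, its annotation and its use of strand, a name or setting is not given in the sources used here. Deposited by the authors was a signal per gene, namely read counts divided by 1 factor per library (3.8, 2.8 and 3.2 for A549 shGFP, shMETTL3 1 and 2; 5.1, 4.5 and 5 for H1299, found from the values, of which 100% of those under 50 fitted a whole number of reads within rounding). The smallest fitting factor was taken, although larger ones fitted equally, so read totals are estimates. No source says how these factors were derived. The A549 knockdown columns bear shMEL and a number in their headers, which tied them to the samples. Column names gave every sample, and 0 columns belonged to other samples.

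From these values log2(value + 1) was computed, which understates changes of low genes, and genes with a mean of at least 1 entered. limma 3.58.1 in R 4.3.3 (eBayes with an intensity trend) was fitted within each line, over both lines with line as a term, with an interaction of line and shMETTL3, and with a term for the library number (0.5 for number 2, -0.5 for number 1, 0 for shGFP). With a single shGFP library per line, its spread is taken to equal that of the knockdown libraries. Spreadsheet dates replaced 27 gene names in A549 and 25 in H1299; these and repeated names were left out across lines. The design foresaw edgeR 4.0.16 and DESeq2 1.42.0 on whole reads wherever reads could be recovered. They were run for A549 alone, since H1299 values carry 1 decimal. The code was tested on simulated data.

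The members and gene lists were chosen with earlier results of these data known. All members are named; from the other lists, up to 3 genes per direction with the largest change over both lines among those on the same side in all 4 libraries. PMVK, FN1 and ZEB2 were named as called genes of their lists after their values were seen. Alternatives were another pseudocount, filters, centring, no trend, all 6 libraries, a replicate block and leaving out libraries. Leaving out libraries in the comparison of numbers, fitting the knockdown libraries alone, and recounting members under other settings were chosen after seeing the data.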

Additional observations from a re-analysis of the deposited data

Results flagged for a closer look

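EBP and SCAP were on opposite sides of the control in the lines. EBP stood at 594, 578 and 554 in A549 (shGFP, shMETTL3 libraries 1 and 2), below the control in both, and at 351, 432 and 355 in H1299, above it in both. The H1299 change minus the A549 change was 0.23 (log2, SE 0.28, limma interaction adjusted p = 0.99999). SCAP stood at 543, 551 and 627 in A549, above the control in both, and at 589, 553 and 579 in H1299, below it in both. Its H1299 change minus its A549 change was -0.17 (log2, SE 0.26, adjusted p = 0.99999). Of 17284 genes, 0 passed the interaction test by limma, and 57 had an unadjusted p under 0.05. With 3 libraries per line, no group was large enough to look for single libraries far from the rest.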

How the results depend on the processing

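The counts of genes changed with shMETTL3 stayed at 0 in A549 and H1299 under each alternative run. Over both lines the count was 1 with median centring and 1 with the replicate block, in which the library number was a term. None of the 7 members fitted with the block passed, and it changed no other call: the interaction stayed at 0 with it. The numbers give only 2 pairs: number 2 minus number 1 had a Pearson correlation of 0.18 between the lines across 17284 genes, which are not independent replicates. Genes that differed between the numbers were 197, 99 with a pseudocount of 0.1, 0 with no intensity trend and 41 with the shMETTL3 libraries alone. Leaving out 1 knockdown library each gave 361 to 1713, in fits with 1 residual degree of freedom. Of these genes, 108 were called with median centring too. HMGCS1 and LSS missed the threshold with a pseudocount of 0.1 (adjusted p = 0.0579 and 0.0550) and with the shMETTL3 libraries alone (0.0899 and 0.130). Without A549 library 1 the log2 was -0.82 for FDPS, -0.79 for MSMO1, -0.61 for ACAT2 and -0.69 for STARD4. FDPS was at -0.77 without A549 library 2, while the A549 pair itself differed by -0.05. Without H1299 library 1 these genes moved towards 0. FDPS went from -0.48 to -0.13, MSMO1 from -0.53 to -0.27, ACAT2 from -0.46 to -0.32 and STARD4 from -0.42 to -0.14. Without H1299 library 2 FDPS was at -0.18. Of 228 values of single members under alternatives, 213 kept direction and side, 10 lost and 5 gained the threshold, and 0 reversed. The 228 values followed picked members only. Some were the 7 whose knockdown libraries lay all above or all below shGFP. The rest were the 14 with an unadjusted limma p under 0.05 between the numbers. Leaving out 1 library could not reverse the 7, and filters or the trend do not alter a log2. The 0 reversals were therefore largely set by this choice, and other members were not followed. In A549, the fatty acid median was -0.15 (-0.17 with median centring, -0.19 to -0.16 without 1 library) and the regulator median 0.10 (-0.050 to 0.11). Members above the control were 6 in A549 (11 to 19 in 1 library alone) and 5 in H1299 (8 with median centring, 5 to 22). Those below were 7 (12 to 20) and 9 (9 to 25). Not run were edgeR and DESeq2 outside A549, and both alternatives for m6A peaks at members. Depth limits TM7SF2 and HSD17B7 most.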

Other observations

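Fatty acid oxidation breaks down what the described branch builds. Of its 17 genes, 11 were lower in library 2 than in library 1 in both lines and 0 higher, against 36.7 and 20.2% of all genes. With median centring the shares of all genes were 24.8 and 34.3%, but these 17 genes were not recounted with it. The medians of number 2 minus number 1 were -0.22 in A549 and -0.21 in H1299, against -0.02 and -0.13 over all genes, and 0 of the 17 were called by limma. Against the control, 2 were higher in all 4 libraries, the acyl-CoA dehydrogenases ACADM (log2 0.14, SE 0.15) and ACADVL (log2 0.12, SE 0.11). HADHB, a subunit of the mitochondrial trifunctional protein, was lower in all 4 (log2 -0.08, SE 0.11). Over all genes, 10.1% were higher and 8.67% lower in all 4.

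Among 10 genes of glycerolipid synthesis and lipid droplets, 4 were lower and 1 higher in library 2 in both lines, where 36.7 and 20.2% of all genes were. The acyltransferase GPAM, which starts glycerolipid synthesis, was below the control in all 4 libraries, at 126, 80.7 and 119 in A549 and 55.3, 43.6 and 51.8 in H1299. DGAT1, which completes triglycerides, was also lower in all 4 (log2 -0.20, SE 0.14), where 8.67% of all genes were. AGPAT3 was higher in all 4 (log2 0.18, SE 0.14), where 10.1% of all genes were. It was almost level with the control in H1299 library 1 (213 against 212), as was DGAT1 in A549 library 1 (257 against 264). None passed by limma (adjusted p = 0.9999 each).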
